A study of Oryza sativa with 16 samples.

Results

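The comparison set unstressed seedlings of VSR156, a rice variety labelled salt-sensitive, against unstressed seedlings of CSR11, a variety labelled salt-tolerant, and so asked which transcripts differed between the varieties before any salt was given. Its arrays were chosen by their titles, 2 of VSR156 and 2 of CSR11, and are 4 of the 16 Affymetrix rice genome arrays of the series. Both groups were grown in hydroponic culture for 2 weeks with no added NaCl, and neither carries a transgene or a mutation by the labels. The tissue is leaf by the labels, whereas the methods name leaf in one place and shoots pooled in equal amounts in another, and they also give a younger age. The other arrays of both varieties came from plants given 50 mM NaCl by the labels, with a higher concentration in the methods, and the remaining 8 arrays came from IR64 and Vandana, with and without drought. Nothing states that the A and B arrays of a group hold RNA of separate plants, so the p-values measure only the spread between arrays, which may be technical.

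Each value is the intensity of a probe set, the group of short probes that stands for 1 transcript, after quantile normalization over the 16 arrays. A difference is the mean of log2(intensity + 16) in VSR156 minus that in CSR11. On this scale changes of dim probe sets come out too small. Its error is the standard error of limma's fit over the 16 arrays, with 2 arrays per variety in the means compared. The spread in that error is pooled over all groups, salt and drought arrays included. It is therefore not the spread of the unstressed VSR156 and CSR11 arrays alone. A call needed a difference of at least 1 in size and an adjusted p below 0.05, where adjusted p-values are those of limma over 57194 probe sets by the Benjamini-Hochberg method.

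The arrays of the varieties differed in brightness and in RNA quality. Before normalization the VSR156 arrays had mean intensities of 133 and 114, against 46.6 and 92.2 on the CSR11 arrays. The intensity of the 3′ probe set of GAPDH was 29.5 and 24.4 times that of its 5′ probe set in VSR156, against 8.31 and 4.13 times in CSR11, and for actin the ratio was 17.7 and 13.1 in VSR156 and 5.56 and 4.82 in CSR11. This ratio grows as RNA gets shorter, and its part in the differences below was not tested. After normalization the arrays of a variety correlated at r = 0.993 for VSR156 and 0.980 for CSR11 across probe sets, and arrays of different varieties at 0.938 to 0.946. Probe sets were designed on reference sequence, so that from these 4 arrays alone a lower transcript level and a worse match of a variety's sequence to the probes cannot be told apart. The match of either variety's sequence was not tested.

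Varieties of rice bred for saline soils differ from sensitive ones in how roots take up ions, in how sodium is kept out of leaf blades, and in proteins that protect dehydrated cells. Roots also carry the transporters for iron, silicon, nitrate, ammonium and phosphate, which leaves use far less. Late embryogenesis abundant (LEA) proteins and dehydrins, among them the RAB16 family, are known for their accumulation in drying seeds and under abscisic acid, salt and drought.

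Between the unstressed varieties, 1209 probe sets were higher in VSR156, which is 2.11% of those tested, and 1616 were lower, which is 2.83%. Counted by gene, with the brightest probe set standing for a gene, 696 of 17905 genes were higher (3.89%) and 911 were lower (5.09%), and the median difference over all genes was 0.06. The split of the calls rested on the scaling. With each array centred on its median instead, 1084 probe sets were higher and 399 lower, and on the values as deposited 809 were higher and 65 lower, since the median gene was then 0.56 and 0.83 higher in VSR156. The directions below are therefore relative to the other genes on the same arrays. The methods' Welch test, with 2 arrays against 2, called 788 probe sets higher and 934 lower at the unadjusted threshold and 0 after Benjamini-Hochberg adjustment.

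The 12 named genes furthest above CSR11 included 2 of the ethylene pathway. ACO1, an oxidase that makes ethylene in the last step of its synthesis, had 812 and 784 units of normalized intensity in VSR156, against 3.67 and 2.39 in CSR11. Its difference of 5.42 ± 0.23 (adjusted p = 6.69e-08) was the highest of any named gene. EIL1, a transcription factor of the ethylene pathway, had 126 and 133 in VSR156 and 5.86 and 8.61 in CSR11, a difference of 2.65 ± 0.17 (adjusted p = 1.73e-06). Both genes were thus near the floor of the array in CSR11 and clearly measured in VSR156.

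Cht4, a chitinase, had intensities of 208 and 218 in VSR156 and 7.73 and 9.25 in CSR11 (difference 3.23 ± 0.19). BGLU9, a member of the beta-glucosidase family, reached 338 and 325 in VSR156, against 22.1 and 17.4 in CSR11 (3.28 ± 0.18). ALN, the allantoinase of purine breakdown, stood at 354 and 355 in VSR156 and at 40.1 and 43.8 in CSR11 (2.68 ± 0.21). In each of these genes the lower VSR156 array lay far above the higher CSR11 array.

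Genes of sugar transport and starch breakdown were among the 12 too. SWEET11, a sugar efflux transporter, had 938 and 958 in VSR156 and 149 and 130 in CSR11 (2.64 ± 0.16). GWD3, a phosphoglucan water dikinase that acts in starch breakdown, had 428 and 398 in VSR156 and 78.3 and 116 in CSR11 (1.94 ± 0.15). The other genes of this group were OC-X, HSP18.0, H2B.10, PP2C47 and KIN14R, with differences between 2.03 and 2.32. Other probe sets of 2 of them gave another answer: a further probe set of PP2C47 differed by 0.10 (adjusted p = 0.948), and of 2 further probe sets of HSP18.0 one differed by 1.92 and the other by -0.16 (adjusted p = 0.858). The call of OC-X, whose adjusted p was 0.0120, was lost when any 1 of the 4 arrays was left out.

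**Figure D1:**
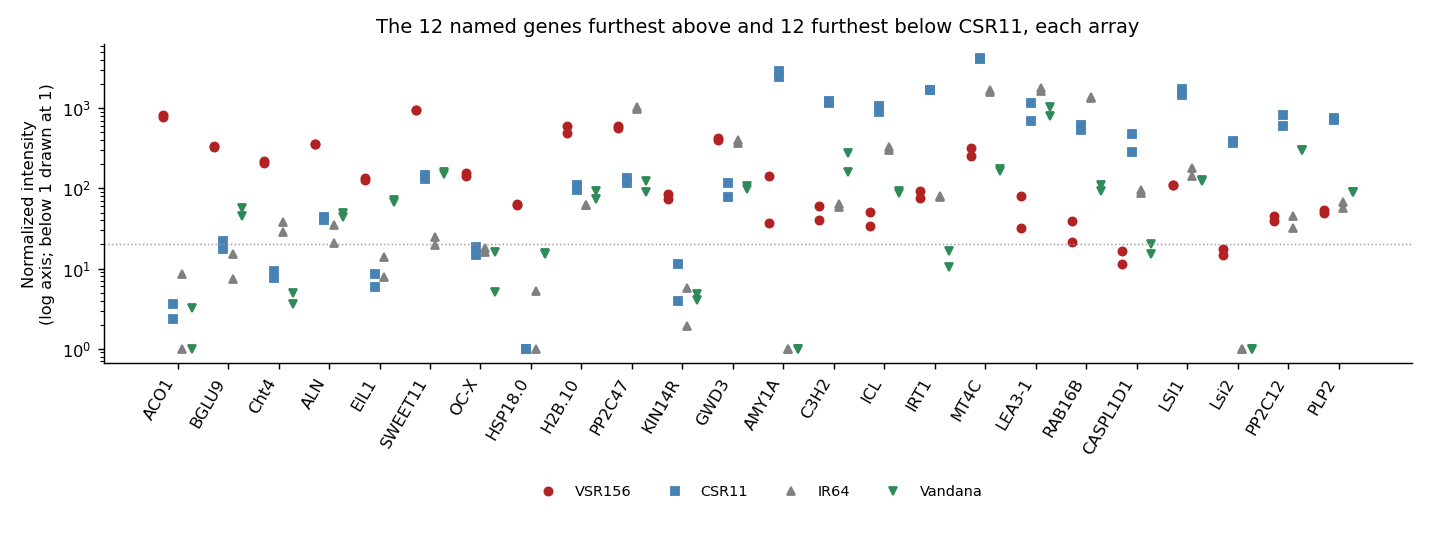
Normalized intensity (log axis) of the 12 named genes furthest above CSR11 (ACO1 to GWD3) and the 12 furthest below it (AMY1A to PLP2); each point is 1 unstressed array, 2 for each of VSR156, CSR11, IR64 and Vandana, values below 1 are drawn at 1, and the dotted line marks 20. ACO1 stood at 812 and 784 in VSR156 and at 3.67 and 2.39 in CSR11, whereas AMY1A stood at 141 and 37.6 in VSR156 and at 2428 and 2873 in CSR11.

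The 12 named genes furthest below CSR11 included 2 enzymes that mobilize reserves, beside transporters, a metallothionein, dehydration proteins and regulators. AMY1A, an alpha-amylase known from germinating grain, had 141 and 37.6 in VSR156, against 2428 and 2873 in CSR11, a difference of -4.86 ± 0.36 (adjusted p = 6.17e-06). ICL, the isocitrate lyase by which seedlings turn stored fat into sugar, had 50.6 and 33.8 in VSR156 and 1050 and 903 in CSR11 (-4.10 ± 0.19, adjusted p = 1.37e-07). Both VSR156 arrays of AMY1A were thus low, although they differed from each other by more than those of most named genes.

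PP2C12, a type 2C protein phosphatase, had 44.8 and 39.5 in VSR156 and 599 and 820 in CSR11 (-3.63 ± 0.23). PLP2, a patatin-like protein, had 49.4 and 53.5 in VSR156 and 721 and 744 in CSR11 (-3.47 ± 0.14). CASPL1D1, of the CASP-like membrane proteins, had 16.5 and 11.5 in VSR156 and 475 and 287 in CSR11 (-3.69 ± 0.32). C3H2, a CCCH zinc finger protein, had 60.1 and 40.8 in VSR156 and 1213 and 1164 in CSR11 (-4.20 ± 0.23), but a second probe set of the gene stood at 905 and 888 in VSR156 and at 993 and 721 in CSR11, with a difference of 0.08 (adjusted p = 0.929). For C3H2 the probe sets thus did not give the same answer.

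Root metal and silicon transporters, together with enzymes and a regulator of iron uptake, formed the list that differed most. All 8 measured members were lower in VSR156, where 5.09% of all genes were. Their differences lay between -4.08 and -1.55, with a median of -3.02 against 0.06 over all genes. IRT1, the ferrous iron transporter of the root surface, had 76.1 and 93.9 in VSR156, against 1666 and 1700 in CSR11 (-4.08 ± 0.20, adjusted p = 1.89e-07). YSL15, which takes up iron bound to phytosiderophore, had 108 and 123 in VSR156 and 1136 and 1552 in CSR11 (-3.36). NAAT1, an enzyme of phytosiderophore synthesis, had 367 and 364 in VSR156 and 2504 and 2379 in CSR11 (-2.69). In each case both CSR11 arrays lay above both VSR156 arrays, as they did for all 1616 probe sets called lower.

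LSI1, the silicon channel of the root exodermis and endodermis, had 109 and 110 in VSR156 and 1740 and 1461 in CSR11 (-3.68 ± 0.16). Lsi2, the silicon efflux transporter that works with it, had 17.4 and 14.6 in VSR156 and 367 and 393 in CSR11 (-3.63 ± 0.14). The iron transporter IRT2 (-2.06), the manganese and cadmium transporter NRAMP5 (-1.70) and the iron-deficiency transcription factor IRO2 (-1.55) completed the list. IRO2 had 232 and 235 in VSR156 and 797 and 645 in CSR11, so that its level in VSR156 was lower but well above the floor. The count rested on the scaling, with 4 of the 8 called with centred arrays and 1 on the values as deposited, at medians of -2.25 and -1.98, and it was 8 whichever of the 4 arrays was left out.

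These 8 genes also served as markers of root tissue, since the labels give leaf. Their summed intensity was 991 and 1022 in VSR156 and 8601 and 8461 in CSR11, and 4905 and 4655 in IR64 controls and 1453 and 1487 in Vandana controls. In IR64 and Vandana not every member followed this sum, as given below for IRT1, LSI1 and Lsi2. Of 15 leaf photosynthesis genes, 0 were called in either direction, 14 stood at 250 or more on all 4 arrays, and their summed intensity was 27109 and 28024 in VSR156 and 30681 and 28653 in CSR11. The list median was -0.25, and 11 of the 15 differences were negative. The small subunit of Rubisco, RBCS-C, had 2772 and 3164 in VSR156 and 4048 and 3412 in CSR11. Leaf transcripts were thus abundant in both varieties, and root markers were measured beside them in both, at a higher sum in CSR11. Whether the samples of either variety held some root was not tested, and more root tissue and more transcript per cell cannot be told apart in such bulk RNA. Of 7 anther and pollen genes 0 were called, and all but MSP1 stood at or below 11.1 on the 4 arrays. Over all genes 3.89% were called higher and 5.09% lower, so that 0 calls in leaf and anther lists this short say little.

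Genes for the uptake and assimilation of nitrogen and phosphate were lower as well, 10 of 26, with 0 higher and a list median of -0.74. The shares over all genes were 5.09% lower and 3.89% higher. AMT1-1, an ammonium transporter, had 160 and 138 in VSR156 and 559 and 685 in CSR11 (-1.95). NIA1, a nitrate reductase, had 316 and 311 in VSR156 and 1370 and 1261 in CSR11 (-2.01). PT1, a phosphate transporter, had 8.58 and 5.82 in VSR156, against 103 and 102 in CSR11 (-2.35 ± 0.42, adjusted p = 0.00348). NRT2.2, a nitrate transporter, had 15.3 and 6.91 in VSR156 and 149 and 95.2 in CSR11 (-2.34 ± 0.39). AMT1-1 and NIA1 were named after their values were seen. The differences of the 10 genes lay between -2.35 and -1.11, and the root markers moved with them. With centred arrays 3 of the 26 were called and on the values as deposited 0, at medians of -0.30 and -0.03.

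Water channels followed the same direction, with 6 of 25 aquaporins lower and 0 higher, LSI1 being 1 of the 6. Over all genes 5.09% were lower and 3.89% higher. TIP2-1, an aquaporin of the vacuole membrane, had 193 and 158 in VSR156, against 1730 and 2281 in CSR11 (-3.39 ± 0.15), and a second probe set of the gene differed by -3.37. The list median of -0.25 became 0.17 on the values as deposited, where 0 were called, and 1 was with centred arrays. Potassium transport genes were lower in 4 of 28 members of the sodium and potassium list, again with 0 higher, and in 0 under either of those scalings. HAK1, a high-affinity potassium transporter, had 180 and 200 in VSR156 and 771 and 627 in CSR11 (-1.79 ± 0.15). HAK16 had 14.7 and 18.5 in VSR156 and 70.0 and 108 in CSR11 (-1.67 ± 0.16). AKT1, the inward potassium channel of roots, had 145 and 121 in VSR156 and 383 and 304 in CSR11 (-1.27 ± 0.13).

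**Figure D2:**
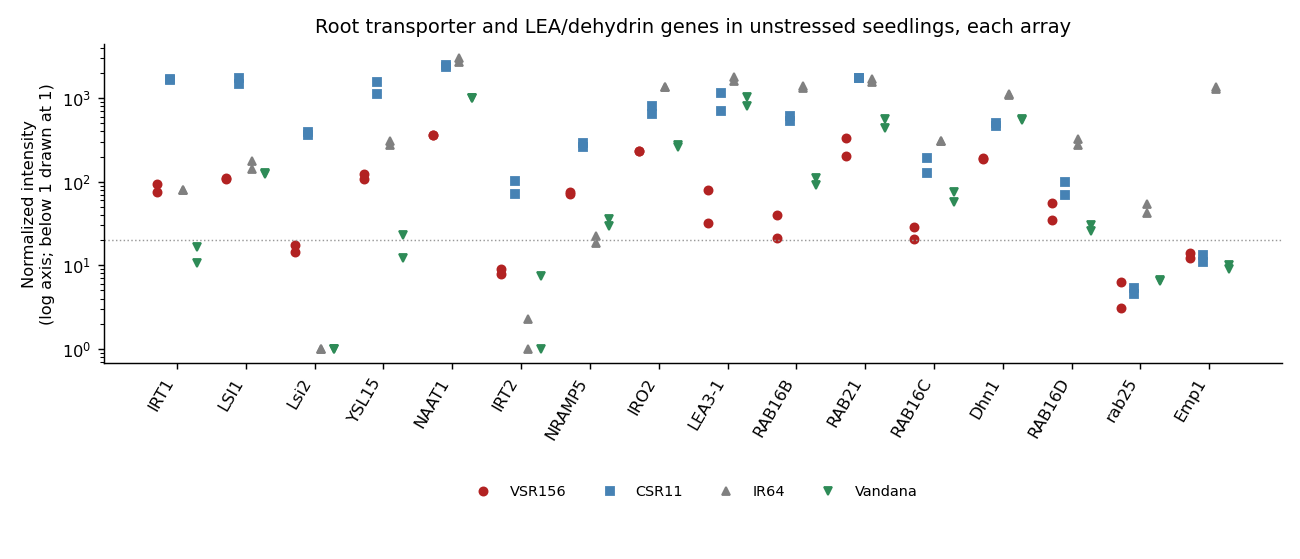
Normalized intensity (log axis) of the 8 root transporter and iron genes (IRT1 to IRO2) and the 8 LEA and dehydrin genes (LEA3-1 to Emp1) on each unstressed array, 2 arrays for each of VSR156, CSR11, IR64 and Vandana; values below 1 are drawn at 1 and the dotted line marks 20. Both VSR156 arrays lay below both CSR11 arrays for all 8 root genes, as for all 1616 probe sets called lower. IRT1 stood at 76.1 and 93.9 in VSR156 and at 1666 and 1700 in CSR11.

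Of 8 LEA and dehydrin genes 5 were lower in VSR156 and 0 higher, against 5.09% and 3.89% of all genes, with a median of -1.69. LEA3-1, a group 3 LEA protein, had 79.9 and 31.9 in VSR156, against 702 and 1155 in CSR11 (-3.76 ± 0.30, adjusted p = 1.04e-05). RAB16B, a dehydrin, had 39.6 and 21.4 in VSR156 and 610 and 539 in CSR11 (-3.69 ± 0.16, adjusted p = 1.08e-07). RAB21, the dehydrin also known as RAB16A, had 331 and 204 in VSR156 and 1727 and 1763 in CSR11 (-2.67), and Dhn1 had 185 and 194 in VSR156 and 503 and 470 in CSR11 (-1.29). RAB16D had 54.9 and 34.6 in VSR156 and 68.4 and 99.8 in CSR11, a difference of -0.72 that did not reach the size required. With centred arrays and on the values as deposited 0 of the 8 were called, at medians of -0.88 and -0.61. RAB21, Dhn1, rab25 and Emp1 were named after their values were seen.

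Not every member was measured above the floor. rab25 stood at 3.12 and 6.38 in VSR156 and at 4.58 and 5.30 in CSR11, and Emp1 at 13.9 and 12.1 in VSR156 and at 10.8 and 13.4 in CSR11, so that no difference could be seen for either. Among 71 genes listed for abscisic acid, most of them numbered type 2C protein phosphatases that are not all known to act with that hormone, 3 were higher and 4 lower with a median of -0.03, where 3.89% of all genes were higher and 5.09% lower. PP2C39, a phosphatase of that list, had 207 and 199 in VSR156 and 738 and 805 in CSR11 (-1.85 ± 0.21), whereas PP2C33 had 85.9 and 59.7 in VSR156 and 21.7 and 28.4 in CSR11 (1.10 ± 0.18).

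Metallothioneins, small cysteine-rich proteins that bind metals, were lower in 3 of 7 members and higher in 0, against 5.09% and 3.89% of all genes. With centred arrays 2 were lower and on the values as deposited 1. MT4C had 320 and 250 in VSR156, against 4143 and 4165 in CSR11 (-3.80 ± 0.14, adjusted p = 3.34e-08), and MT4A had 476 and 373 in VSR156 and 3399 and 3338 in CSR11 (-2.95 ± 0.19). MT2C was among the brightest probe sets of both varieties, at 4739 and 4906 in VSR156 and 5395 and 5164 in CSR11, and its difference of -0.13 was not called. At such brightness an array can saturate, which bounds what MT2C can show. MT2C and RBCS-C were named after their values were seen.

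Of 43 thioredoxins and glutaredoxins 1 was higher and 6 lower, at a median of -0.03. For this list and the next, the shares over all genes were 3.89% higher and 5.09% lower. With centred arrays and on the values as deposited 0 were lower, at medians of 0.65 and 0.92. The glutaredoxin GRXC1 had 36.5 and 28.7 in VSR156 and 352 and 331 in CSR11 (-2.88 ± 0.22), whereas GRXC10 had 62.8 and 55.8 in VSR156 and 13.3 and 11.95 in CSR11 (1.40 ± 0.24). Of 45 heat shock proteins and factors 2 were higher and 7 lower, at a median of -0.08. With centred arrays 1 was lower and on the values as deposited 0, at medians of 0.29 and 0.56. HSFA2D (-2.07) was 1 of the 7, but the names of its gene also include an acireductone dioxygenase, so that its probe set may measure either. HSP16.0, a small heat shock protein, stood at 1.24 and 0.659 in VSR156 and at 51.4 and 65.4 in CSR11 (-2.13 ± 0.31), and HSP18.0, on its brightest probe set, at 216 and 194 in VSR156 and 37.1 and 47.7 in CSR11 (1.92 ± 0.17). Members of 1 family thus went in opposite directions.

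Of 53 transcription factors of the DREB and ERF, NAC, WRKY, bZIP and MYB families 8 were lower and 0 higher, against 5.09% and 3.89% of all genes. NAC071, a NAC factor also called NAC5, had 50.8 and 52.3 in VSR156, against 320 and 313 in CSR11 (-2.30 ± 0.17), and 2 further, dim probe sets of the gene were not called. bZIP79 had 7.55 and 13.4 in VSR156 and 69.0 and 67.7 in CSR11 (-1.68 ± 0.32). The list median of -0.29 became 0.01 with centred arrays, where 2 were called lower and 1 higher, and 0.28 on the values as deposited, where 0 were called.

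The list with most calls in the other direction was that of DNA replication and the cell cycle, with 8 of 64 genes higher and 0 lower. Its median was 0.36, and 3.89% of all genes were higher. MCM2, a subunit of the helicase that opens replication origins, had 331 and 336 in VSR156, against 93.7 and 116 in CSR11 (1.54 ± 0.20, adjusted p = 4.15e-04). MCM3 and MCM4 of the same complex differed by 1.27 and 1.28, the origin recognition subunit ORC1 by 1.38 and the replication protein RPA32A by 1.08. MCM5, MCM6 and MCM7 differed by 0.20, 0.84 and 0.52 and were not called. POLD1, the catalytic subunit of a replicative polymerase, had 99.6 and 93.5 in VSR156 and 12.1 and 32.7 in CSR11 (1.60 ± 0.35, adjusted p = 0.0112), and its call was lost without CSR11 array A or either VSR156 array. KRP5 and KRP6, which inhibit cyclin-dependent kinases, were higher too, by 1.06 and 1.52, so that the 8 genes included brakes of the cycle as well as replication factors. With centred arrays 3 of the 64 were called higher and on the values as deposited 0, at medians of 0.88 and 1.15. MCM3 to MCM7, ORC1, RPA32A, KRP5 and KRP6 were named after their values were seen. Of 24 ribosomal protein genes 1, RPL30, was called, with 1443 and 1328 in VSR156 and 615 and 513 in CSR11 (1.28 ± 0.15), although 23 of the 24 had a positive difference and the median was 0.39.

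Carbohydrate genes had calls both ways, 3 of 41 higher and 8 lower, at a median of -0.09, where 3.89% of all genes were higher and 5.09% lower. With centred arrays 2 were higher and 2 lower, and on the values as deposited 0 and 1, at medians of 0.24 and 0.50. Alpha-amylases were at the low end: beside AMY1A, AMY1.3 had 2.44 and 0.922 in VSR156 and 189 and 116 in CSR11 (-3.22 ± 0.20). A second probe set of AMY1.3, dim in both varieties, differed by 0.11. SSI, a soluble starch synthase, was at 182 and 140 in VSR156 and 41.7 and 47.1 in CSR11 (1.54 ± 0.14). SUS1, a sucrose synthase, had 1428 and 1647 in VSR156 and 1792 and 1444 in CSR11, with no call, but a second probe set had 278 and 481 in VSR156 and 945 and 843 in CSR11 (-1.25 ± 0.27, adjusted p = 0.0125). Storage proteins of the grain, the seed markers, were dim, and 2 of 11 were called lower: prolamin had 8.76 and 10.53 in VSR156 and 29.8 and 53.3 in CSR11 (-1.14 ± 0.21), and RA14 had 23.0 and 11.2 in VSR156 and 50.1 and 88.2 in CSR11 (-1.35 ± 0.30). A second probe set of prolamin differed by -0.77 with no call (adjusted p = 0.0610). Of the further probe sets of RA14, one was called at -1.03, and those at -0.19 and -0.06 were not. Whether remains of the grain were part of the sampled tissue was not tested.

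In lists of hormones, the cell wall and defence the counts were read beside the 3.89% of all genes called higher and the 5.09% called lower. In the auxin list, 2 of 59 were higher and 2 lower, with ARF12, an auxin response factor, at 825 and 784 in VSR156 and 283 and 344 in CSR11 (1.32 ± 0.18), and GH3.2, an enzyme that conjugates auxin, at 22.1 and 15.4 in VSR156 and 129 and 151 in CSR11 (-2.17 ± 0.25). Of 36 cytokinin and gibberellin genes 2 were lower, LOGL9 by -1.33 and RR9 by -1.08. Of 59 cell wall genes 2 were higher and 2 lower, where the expansins EXPB11 (1.29 ± 0.13) and EXPB2 (-2.28 ± 0.23) went apart. Of 29 cytochrome P450 enzymes 4 were lower. CYP74A4, an allene oxide synthase of jasmonate synthesis, had 6.70 and 11.6 in VSR156, against 207 and 247 in CSR11 (-3.27 ± 0.19), and CYP714D1, which inactivates gibberellins, had 11.6 and 7.37 in VSR156 and 121 and 63.3 in CSR11 (-2.04 ± 0.35). With centred arrays 2 of the 29 were called lower and on the values as deposited 1. Of 21 genes of diterpene and phytoalexin synthesis 2 were lower, KO1 by -1.67 and KO5 by -1.54. A second probe set of KO1 differed by -0.87 with no call.

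Beside Cht4, the chitinase Cht2 was called lower, with 17.8 and 10.5 in VSR156 and 293 and 249 in CSR11 (-3.26 ± 0.15). A second Cht2 probe set was called the opposite way, at 33.3 and 47.6 in VSR156 and 0.776 and 3.38 in CSR11 (1.64 ± 0.22), and a further one differed by -0.60 with no call. Probe sets whose names end in s_at, x_at or a_at may bind transcripts of several genes. Cht2 was 1 of 6 genes whose probe sets were called in both directions. Of 537 genes with 2 or more probe sets and at least 1 call, 75 had all probe sets called the same way and 456 had some not called.

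Few calls fell in the remaining lists, to be read beside the 3.89% of all genes called higher and the 5.09% called lower. The flowering factor MADS56 stood at 0.884 and 0.569 in VSR156, against 148 and 134 in CSR11 (-3.23 ± 0.11, adjusted p = 1.73e-08), and MADS26 at 7.59 and 4.91 in VSR156 and 65.9 and 52.1 in CSR11 (-1.75 ± 0.27), which were the 2 calls among 45 clock and flowering genes. Of 31 calcium sensors and kinases of the CBL and CIPK families 2 were higher and 2 lower, among them CIPK18 (1.68 ± 0.16), CBL9 (1.10 ± 0.13), CIPK5 (-1.29 ± 0.23) and CIPK10 (-1.09 ± 0.16, with 2 of its 3 other probe sets called lower too). A second probe set of CBL9 differed by 0.64 with no call. The direction of CIPK10 turned to 0.05 on the values as deposited. The glutathione S-transferase GSTU1 was higher, with 207 and 241 in VSR156 and 48.8 and 54.9 in CSR11 (1.82 ± 0.16), the call among 6 genes of its list. APX5, an ascorbate peroxidase (1.16 ± 0.24), was 1 of 16 antioxidant genes and CHLG, a chlorophyll synthase (1.16 ± 0.16), 1 of 15 chlorophyll and carotenoid genes. ADC1, an arginine decarboxylase (-1.52 ± 0.21), was the call among 16 osmolyte genes. UBQ4 was lower by -1.26 among 25 reference genes, of which no other was called. On the values as deposited, 0 calls were made in the auxin, cytokinin and gibberellin, cell wall, diterpene, seed, ribosomal, CBL and CIPK, glutathione S-transferase, chlorophyll, osmolyte and reference lists.

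**Figure D3:**
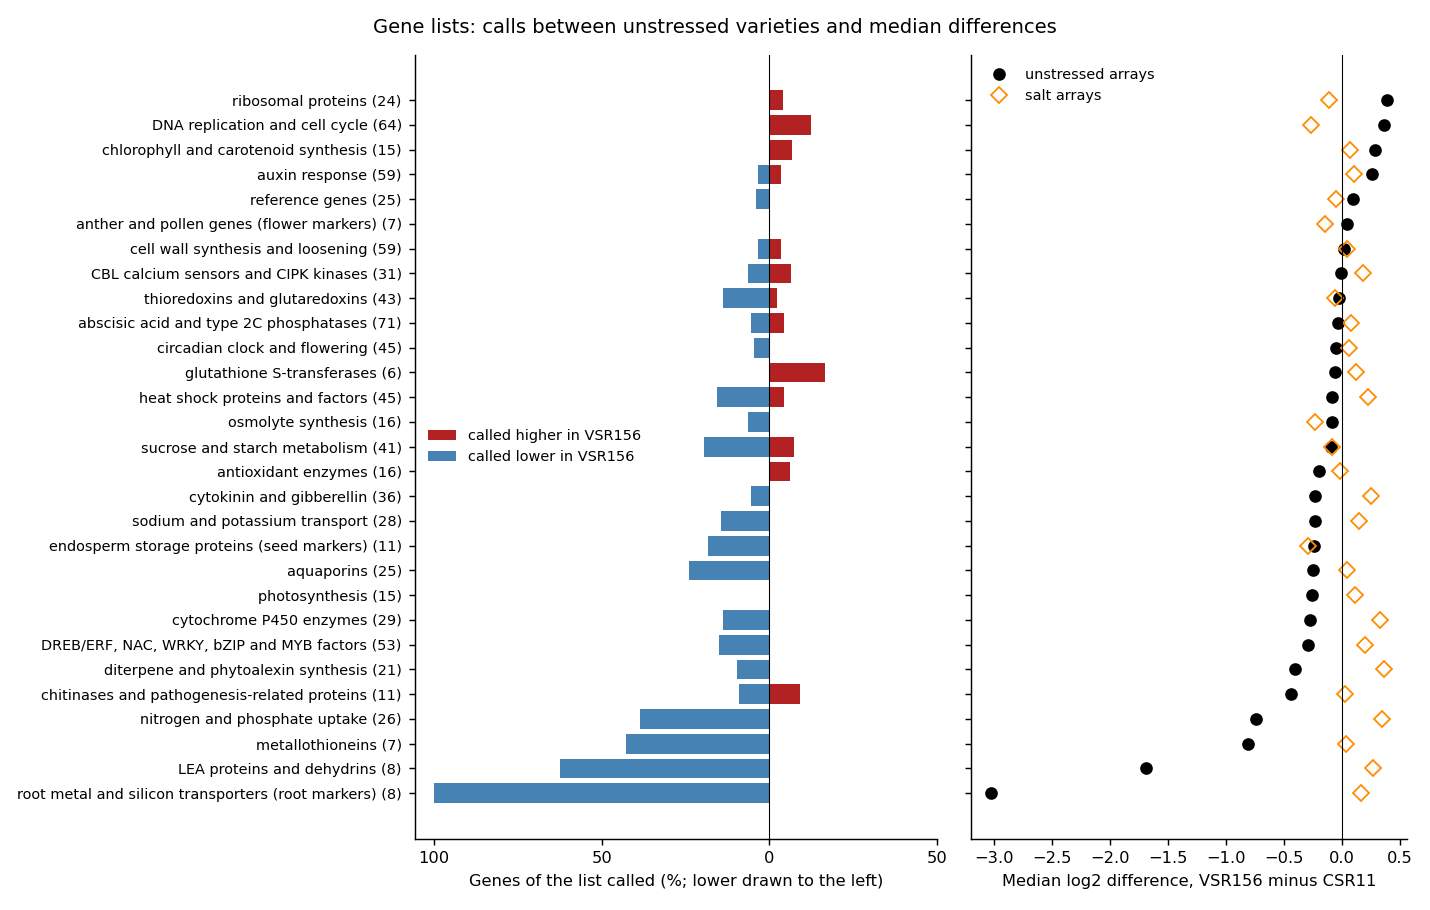
Left, percentage of the genes of each list called higher (right of 0) or lower (left of 0) in unstressed VSR156 relative to CSR11, with the number of genes in parentheses; right, the median log2 difference, VSR156 minus CSR11, of each list on the unstressed arrays (filled circles) and on the salt arrays (open diamonds). The root list had 8 of 8 genes lower and a median of -3.02 unstressed and 0.17 on the salt arrays.

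Genes known for salt tolerance were looked at whatever their call. SALT, a lectin-like protein named for its response to salt, was called lower, with 687 and 567 in VSR156, against 2727 and 2684 in CSR11 (-2.09 ± 0.13, adjusted p = 1.04e-06), and a second probe set differed by -3.07. HKT1;5, which removes sodium from the xylem, had 10.8 and 15.3 in VSR156 and 44.6 and 28.7 in CSR11, and its difference of -0.85 ± 0.30 was not called (adjusted p = 0.116). CIPK24 and CBL4, kinase and calcium sensor of the SOS pathway, differed by -0.16 and -0.07, with adjusted p of 0.790 and 0.978. CBL4 stood at 16.5 and 15.4 in VSR156 and at 15.8 and 19.5 in CSR11, near the floor in both, so that no difference was detectable for it. BADH2, an aldehyde dehydrogenase that also sets grain fragrance, had 252 and 330 in VSR156 and 506 and 440 in CSR11 (-0.68 ± 0.17, adjusted p = 0.0236), which was under the size required.

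The proline enzymes P5CS1 and P5CS2 differed by -0.17 and 0.19, BADH1 by -0.30, and the transcription factors DREB1A, DREB2A and MYB2 by 0.19, 0.51 and -0.12, none of them called. DREB1A stood at 10.6 and 3.18 in VSR156 and at 2.42 and 5.26 in CSR11, near the floor in both, so that no difference was detectable. The same held for DREB2A, at 14.1 and 15.8 in VSR156 and at 1.62 and 10.9 in CSR11. GLN2, the plastid glutamine synthetase, had 2035 and 1976 in VSR156 and 2302 and 2233 in CSR11 (-0.18 ± 0.09). The 2 genes named Cht1 differed by -0.44 and -0.63. The latter stood at 2.60 and 3.71 in VSR156 and at 9.11 and 19.1 in CSR11, near the floor in both. SOS1, NHX1 and SNAC1 were not found under these names in the annotation used here, and no values are given for them.

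Some probe sets were bright in one variety and near the floor in the other. In VSR156, 65 stood at 200 or more on both arrays while both CSR11 arrays were at 20 or less, and 42 showed the reverse. The brightest of the first kind, with no gene named, was Os.7149.1.S1_at at 1701 and 1750 in VSR156 and 11.8 and 6.37 in CSR11. Os.51813.1.S1_at followed the same pattern, with 1501 and 1421 in VSR156 and 7.53 and 2.85 in CSR11. LOC4352472 had 1505 and 1422 in VSR156 and 11.9 and 14.7 in CSR11, and its second probe set had 1214 and 1159 in VSR156 and 5.002 and 5.78 in CSR11. In IR64 it had 1641 and 1750 and in Vandana 6.34 and 4.10, so that the varieties fell on both sides. All 3 were called higher in VSR156 on the salt arrays too, but there CSR11 stood at 20 or less on both arrays only for Os.51813.1.S1_at, and LOC4352472 had 2119 and 2078 in VSR156 and 34.3 and 106 in CSR11.

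The brightest of the second kind was OsAffx.32080.1.S1_at, with 12.4 and 13.1 in VSR156 and 902 and 886 in CSR11. Os.11315.1.S1_at had 8.50 and 3.79 in VSR156 and 830 and 694 in CSR11, and Os.12452.1.S1_s_at had 11.99 and 10.3 in VSR156 and 567 and 924 in CSR11. None of these 3 was called lower on the salt arrays, and Os.11315.1.S1_at was higher in VSR156 there, with 704 and 626 in VSR156 and 72.2 and 114 in CSR11. Of the 65 probe sets bright in VSR156, 61 were called the same way on the salt arrays, whereas 25 of the 42 bright in CSR11 were. Over all unstressed calls, 36.1% of the higher and 23.1% of the lower probe sets were called the same way there. That higher calls recurred more often was thus not particular to the probe sets near the floor. In all 4 unstressed arrays of IR64 and Vandana, 14 of the 65 and 14 of the 42 stood at 20 or less. The share of all probe sets at that level on those 4 arrays was not computed.

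Some called genes were neighbours on the chromosomes, out of 696 genes called higher and 911 called lower. The number of such runs to be expected at those counts was not computed. Among 17903 measured genes placed in order, 21 runs of 3 or 4 neighbouring genes were called in one direction, 10 higher and 11 lower, with 65 genes in these runs. In 5 runs every gene was called the same way on the salt arrays, and all 5 were higher in VSR156. In 7 runs no gene was, and 6 of these were lower. The neighbouring dehydrin genes RAB16C, RAB16B and RAB21 formed 1 run, with differences between -3.69 and -2.09, and the germin-like genes GER2, GER1, GER6 and GLP2 another, with differences between -2.00 and -1.25. These runs were named after their values were seen. Neighbours in such families are alike in sequence, so that probes of 1 gene may also bind transcripts of the next, which was not tested.

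The salt arrays gave a second comparison of the same varieties on other arrays, though with the error pooled in the same fit. There 1525 probe sets were higher in VSR156 (2.67%) and 1177 lower (2.06%). Those arrays were poor: mean intensities before normalization were 36.2 and 22.9 in VSR156 and 94.8 and 9.17 in CSR11, and the GAPDH ratio was 205 and 285 in VSR156 and 9.99 and 81.4 in CSR11. Without CSR11 salt array A the counts became 3783 higher and 3964 lower. Of the 1209 probe sets higher in unstressed VSR156, 912 had a positive difference on the salt arrays, 436 were called higher and 25 lower. Of the 1616 lower ones, 1024 had a negative difference, 374 were called lower and 112 higher. These counts of shared calls stayed between 405 and 475 and between 352 and 399 when any 1 salt array was left out.

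Genes called higher in VSR156 on both the unstressed and the salt arrays included ACO1, with 1335 and 1401 in VSR156 and 30.2 and 28.4 in CSR11 on the salt arrays (4.93), Cht4 (3.98) and EIL1, with 500 and 392 in VSR156 and 10.7 and 3.85 in CSR11 (4.32). In the lower direction, PP2C12 (-2.68), MADS56 (-2.25), C3H2 (-2.52), Cht2 (-1.87) and SALT (-1.41) were called again. Root and dehydration genes were not called lower again. IRT1 was higher in VSR156 under salt, with 1063 and 994 in VSR156 and 236 and 256 in CSR11 (1.998), and LSI1 stood at 606 and 683 in VSR156 and 603 and 761 in CSR11 (-0.07). LEA3-1 had 2364 and 2710 in VSR156 and 1536 and 1951 in CSR11 (0.54), and RAB16B had 1073 and 1142 in VSR156 and 1193 and 1124 in CSR11 (-0.06). Of the 8 root genes 0 were called lower on the salt arrays and 2 higher, and 0 of the 5 dehydration genes were called lower and 1, Dhn1, higher. Of the 10 nitrogen and phosphate genes 0 were called lower there and 1 higher. Of the 8 replication and cell cycle genes 0 were called higher there and 2 lower, and the median of that list was -0.27.

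The change of the variety difference between the unstressed and the salt arrays was tested as an interaction, and at an adjusted p under 0.05 alone it passed for 9.04% of all probe sets. It passed for 565 of the 1209 higher and 915 of the 1616 lower probe sets, which had been chosen for their unstressed difference on arrays that the test also uses. MCM2 was one of them, with 57.1 and 80.0 in VSR156 and 167 and 112 in CSR11 on the salt arrays, where its difference was -0.87.

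**Figure D4:**
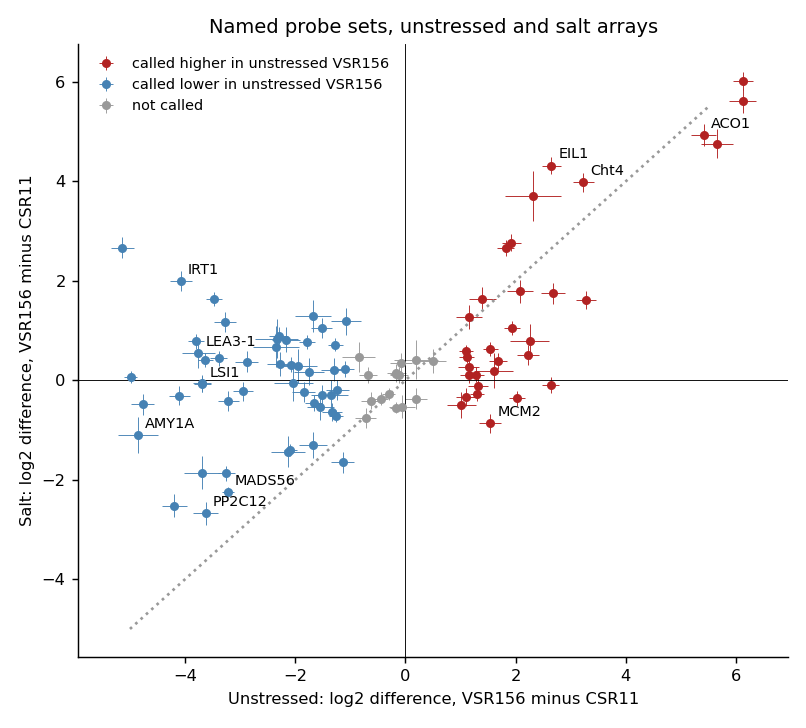
Log2 difference, VSR156 minus CSR11, of the 97 named probe sets on the unstressed arrays (horizontal axis) and on the salt arrays (vertical axis), with standard errors of limma's fit as bars and the line of equal differences dotted. ACO1, Cht4 and EIL1 lie at the upper right, with 4.93, 3.98 and 4.32 on the salt arrays, whereas IRT1 lies at -4.08 unstressed and 1.998 under salt.

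The unstressed arrays of IR64 and Vandana place the levels of both varieties among other rice. For 914 of the 1209 probe sets higher in VSR156 (75.6%), all 4 of those arrays lay below both VSR156 arrays, and for 381 (31.5%) they lay above both CSR11 arrays. For 786 of the 1616 lower ones (48.6%) they lay below both CSR11 arrays. For 949 of the 1616 (58.7%) they lay above both VSR156 arrays. All of these probe sets had been chosen for their difference between VSR156 and CSR11, and shares over all probe sets were not computed. The counts therefore do not show which variety stands apart. ACO1 stood at 0.668 and 8.59 in IR64 and at 3.27 and 0.997 in Vandana, so that VSR156 was the variety that stood apart. MADS56 had 529 and 531 in IR64 and 490 and 427 in Vandana, and LEA3-1 had 1783 and 1623 in IR64 and 802 and 1041 in Vandana, where CSR11 was closer to the other varieties. AMY1A was at or below 0.697 on all 4 of those arrays, and IRT1 had 78.9 and 79.6 in IR64 and 10.6 and 16.6 in Vandana, where VSR156 was the closer one. Such single genes do not stand for their lists. The summed root markers lay between VSR156 and CSR11, at 4905 and 4655 in IR64 and 1453 and 1487 in Vandana. Not every member followed this sum. LSI1 had 142 and 178 in IR64 and 126 and 124 in Vandana, close to 109 and 110 in VSR156. Lsi2 had 0.731 and 0.320 in IR64 and 0.647 and 0.224 in Vandana, below 17.4 and 14.6 in VSR156. The sum therefore does not rank the varieties for each root marker. RAB16B lay above both CSR11 arrays in IR64 (1336 and 1386) but below them in Vandana (110 and 92.3). Those plants belonged to the drought experiment, and variety and experiment cannot be told apart in this comparison.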

How the data were processed

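Labelled RNA was hybridized to 16 Affymetrix rice arrays, 2 in each of 8 groups, and groups were taken from the labels. The authors deposited linear intensities, 1 for each probe set on each array. GCOS 1.0 made them according to the submitters' processing notes, whereas the methods name another version, RMA and a filter on absent calls, neither of which the values show. The 187 control probe sets were removed, the values of the remaining 57194 were quantile-normalized over the 16 arrays, and 16 was added before log2. The platform annotation pairs 22436 probe sets with 1 gene and 95 with several, leaves 34663 without one, and gene names came from RefSeq synonyms (assembly ASM3414082v1).

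Tests were run in limma 3.58.1 under R 4.3.3, with 1 mean per group over all 16 arrays (residual degrees of freedom 8, prior 2.94), and the code was tested on simulated data. Python 3.11.15, pandas 2.3.3 and matplotlib 3.10.9 made tables and plots. The number of arrays limits the precision.

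The members and lists were chosen with earlier results of these data known. Lists match by name, and no product names were at hand, so the rule to name numbered genes of known product was not applied. Named were the 12 named genes furthest each way whose arrays did not overlap, up to 2 called genes per list and direction, a set of salt genes and the 3 brightest near-floor probe sets each way. Alternatives were other pseudocounts, scalings, filters, sets of arrays, array weights, a replicate block and the methods' Welch test. Leaving out salt arrays was added after the data were seen.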

Additional observations from a re-analysis of the deposited data

Results flagged for a closer look

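For 59 of the 97 named probe sets the difference between VSR156 and CSR11 changed between the unstressed and the salt arrays, at an adjusted p under 0.05 in limma's interaction test. Values below are the unstressed difference minus the difference on the salt arrays, on the log2 scale. All 59 were called on the unstressed arrays, for which most of them had been chosen and which the test also uses, and the salt arrays differed from the unstressed ones in brightness and RNA length, whose part was not tested. Without CSR11 salt array B, 57 of the 59 passed with the same sign, and HSP18.0 (adjusted p = 0.0808) and GSTU1 (adjusted p = 0.0706), named below among 3 with a larger difference under salt, did not. No array was tested against its group, since each group holds 2.

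Among genes called higher in unstressed VSR156, the difference was larger unstressed for SWEET11 (2.72), MCM2 (2.40), KIN14R (2.39), H2B.10 (1.71), BGLU9 (1.67), EXPB11 (1.58), IAA7 (1.51), PP2C33 (1.44), ARF12 (1.44), CIPK18 (1.30), RPL30 (1.16), CHLG (1.05), SSI (0.92) and GWD3 (0.89). It was larger under salt for EIL1 (-1.67), HSP18.0 on its brightest probe set (-0.85) and GSTU1 (-0.84).

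Among genes called lower, the change was most negative for the unnamed Os.11315.1.S1_at (-7.80), IRT1 (-6.08), PLP2 (-5.10), the unnamed OsAffx.32080.1.S1_at (-5.05), MT4C (-4.58), CYP74A4 (-4.45), LEA3-1 (-4.30), the unnamed Os.12452.1.S1_s_at (-4.29) and Lsi2 (-4.04). Next came TIP2-1 (-3.83), ICL (-3.79), AMY1A (-3.75), RAB16B (-3.63), LSI1 (-3.61), GRXC1 (-3.26), NAC071 (-3.20), NRT2.2 (-3.17) and PT1 (-3.03). Values between -3 and -2 belonged to GH3.2 (-2.98), bZIP79 (-2.97), AMY1.3 (-2.79), MT4A (-2.73), EXPB2 (-2.61), GRXS2 (-2.58), HAK1 (-2.56), HSFA2D, whose probe set may measure a dioxygenase instead (-2.39), RR9 (-2.26) and EXPA3 (-2.25). Smaller changes were seen for AKT1 (-1.98), CYP714D1 (-1.97), MADS26 (-1.92), CASPL1D1 (-1.84), C3H2 (-1.68), PP2C39 (-1.61), CIPK5 (-1.51), Cht2 (-1.38), CIPK10 (-1.32), HAK16 (-1.22), ADC1 (-1.22), GH3.8 (-1.04), MADS56 (-0.98) and SALT (-0.68).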

How the results depend on the processing

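The counts of 1209 higher and 1616 lower probe sets were within 1.5 times with pseudocount 4, the 4 control arrays alone, no CSR11 salt arrays and array weights. They became 504 and 770 with pseudocount 64, 724 and 973 with a fit of the 8 salt experiment arrays, 789 higher and 1227 lower among probe sets with a mean intensity of at least 50, 1084 and 399 with centred arrays, 809 and 65 on the values as deposited, and 788 and 934 by the methods' Welch test unadjusted or 0 and 0 adjusted. Leaving out 1 of the 4 arrays gave 978 to 1386 higher and 1277 to 1678 lower. Deviations of arrays with the same letter correlated at r = -0.04 between the varieties, so the letters gave no sign of pairing, and a replicate block gave 1203 higher and 1605 lower. On the salt arrays, leaving out 1 array gave 1154 to 3783 higher and 1018 to 3964 lower. Cause was not tested for any of these moves.

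Of the 82 called named probe sets, 81 kept their sign in each of the 15 settings that gave them a value, since the intensity filter left out 22 of the 97 named probe sets, the exception being CIPK10 (0.047 as deposited), and 17 also kept their call in all settings but the Welch test. Genes without a call changed sign with scaling. With centred arrays and as deposited, CIPK24 was at 0.58 and 0.85, CBL4 at 0.077 and 0.35, P5CS1 at 0.59 and 0.86, BADH1 at 0.51 and 0.78, BADH2 at 0.20 and 0.47, MYB2 at 0.14 and 0.41, SUS1 at 0.44 and 0.71, GLN2 at 0.15 and 0.42, Cht1 (Os.22000.1.S1_at) at 0.26 and 0.53, and RAB16D as deposited at 0.15. Leaving out 1 of the 4 arrays gave -0.40 to 0.079 for CIPK24, -0.15 to 0.005 for CBL4, -0.29 to 0.67 for P5CS2 and -0.36 to 0.13 for MYB2, with the sign turned without CSR11 array B (and for P5CS2 also without VSR156 array B, -0.02). It gave -0.22 to 0.086 for SUS1, turned without array A of either variety (0.03 without that of VSR156), and -0.0448 to 0.43 for DREB1A, turned without VSR156 array A. The median of the root list stayed between -3.36 and -1.98. Dim probe sets limit what can be seen, since values under about 20 have no reliable order.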
